A study of Mus musculus with 4 samples.

Results

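The expression of 9 genes of the complement system was followed through the epithelium of the mouse mammary gland: C3, C4b, Cfb, C1ra, C1s1, Serping1, Cd55, Cd59a and Clu. They were listed by name as components and inhibitors of this pathway, with no threshold on a measured value, and make up 9 of the 31053 genes in the count matrices. Each was read as the sum of its unique molecular identifiers (UMIs, 1 per captured transcript) in 3 epithelial classes of each library, divided by all UMIs of that class and scaled to 1000000 (CPM).

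Complement is a cascade of secreted proteases that marks cells and microbes for removal. In the classical pathway the proteases C1r and C1s, carried by the recognition molecule C1q, cut C4 and C2, and the products form an enzyme that cuts C3, the protein on which all routes meet. In the alternative pathway factor B, the product of Cfb, joins deposited C3b and amplifies its own deposition. Inhibitors limit the cascade: the C1 inhibitor made from Serping1 blocks C1r and C1s, CD55 takes apart the C3-cutting enzymes on the cell surface, CD59 stops the membrane pore, and clusterin, from Clu, binds the terminal complex in the fluid. The mammary epithelium has an outer layer of contractile basal cells and an inner layer of luminal cells, either progenitors of the milk-secreting lineage or hormone-sensing cells that carry oestrogen and progesterone receptors.

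The cells came from FVB mice of genotype Tfap2c fl/fl with Krt5-CreERT2, a Cre recombinase driven by a basal keratin promoter that becomes active with 4-hydroxytamoxifen (4OHT). Mice received daily injections from postnatal week 4, of corn oil in the control group or of 4OHT to delete Tfap2c, which encodes AP-2γ, a transcription factor, and the fourth mammary glands were taken at week 9. The submitters give the length of injection as 5 days in one label and as a week in another. All mice carried the floxed alleles and the Cre, and 2 mice of each treatment were submitted, with 1 library of droplet 3′ single-cell RNA-seq for each of 2 replicate numbers per treatment.

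The 4 libraries held 18223 cell barcodes and between 17351950 and 22017878 UMIs each, and 17832 cells had at least 1000 UMIs. Pairs of libraries shared at most 36 barcodes. Cells were classed by raw UMIs: basal where Krt5, Krt14, Krt17 and Acta2 summed to 5 or more and to over 3 times the sum of Krt8, Krt18 and Krt19, and luminal where the reverse held. Luminal cells were hormone-sensing where Ly6d, Fxyd2 and Gpx3 summed to 3 or more and above Wfdc18, Csn3 and Ltf, and progenitors otherwise. This gave 7028 basal, 5629 luminal progenitor and 1168 hormone-sensing cells, and 4007 cells entered no class. Markers outside the rule went with the names: 8 basal markers summed to 5689 to 7697 CPM in basal sums and 65.9 to 289 CPM in luminal ones, 6 progenitor markers to 1609 to 2315 CPM in progenitors and 162 to 323 CPM elsewhere, and 6 hormone-sensing markers to 1165 to 2234 CPM in hormone-sensing cells and 19.4 to 133 CPM elsewhere. In basal cells Tfap2c itself was read at 389 CPM (corn oil 1), 285 CPM (corn oil 2), 285 CPM (4OHT 1) and 325 CPM (4OHT 2), a log2 difference of -0.08 (adjusted p = 0.999, edgeR). The deleted exons are not given in the sources used here, so 3′ reads may lie outside them and this count does not check the deletion. Each library is therefore named by its label, and every direction between treatments below is a direction between labels.

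Promoter sequence was available for 4 members at starts that lie outside annotated exons. It is printed because these 4 cover each direction between basal cells and progenitors described next: C3 and Cd55 higher in progenitors than in basal cells, C1s1 higher in basal cells, and Cd59a without a difference that passed between them. The patterns of C1ra and Clu over the 3 classes are not among them. Each run is the 250 bases before the RefSeq transcription start (RefSeq, GRCm38.p6), 5′ to 3′ on the gene's strand. Capitals mark matches, on either strand, to NF-κB (GGG, any 5 bases, CC), C/EBP (TTGCNNAA) or interferon response (GAAA, any 2 bases, GAAA) letters. Runs of capitals in which 2 matches overlap are joined.
C3, chr17:57228137-57228386, minus strand: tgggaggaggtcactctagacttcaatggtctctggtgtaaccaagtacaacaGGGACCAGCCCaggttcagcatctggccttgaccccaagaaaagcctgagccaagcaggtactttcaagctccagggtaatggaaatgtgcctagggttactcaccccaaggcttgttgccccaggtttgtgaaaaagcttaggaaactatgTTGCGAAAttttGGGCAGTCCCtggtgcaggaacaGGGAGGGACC
Cd55, chr1:130462745-130462994, minus strand: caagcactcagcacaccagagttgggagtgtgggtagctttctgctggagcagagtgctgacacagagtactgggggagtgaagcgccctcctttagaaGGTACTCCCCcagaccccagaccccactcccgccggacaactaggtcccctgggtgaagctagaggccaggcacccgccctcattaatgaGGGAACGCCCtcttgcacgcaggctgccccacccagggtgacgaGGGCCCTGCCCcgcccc
Cd59a, chr2:104095551-104095800, plus strand: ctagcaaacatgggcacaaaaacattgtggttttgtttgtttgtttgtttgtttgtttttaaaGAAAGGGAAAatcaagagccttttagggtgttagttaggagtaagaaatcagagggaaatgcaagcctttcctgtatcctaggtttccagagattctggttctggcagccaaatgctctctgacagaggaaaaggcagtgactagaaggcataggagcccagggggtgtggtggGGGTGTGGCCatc
C1s1, chr6:124542360-124542609, minus strand: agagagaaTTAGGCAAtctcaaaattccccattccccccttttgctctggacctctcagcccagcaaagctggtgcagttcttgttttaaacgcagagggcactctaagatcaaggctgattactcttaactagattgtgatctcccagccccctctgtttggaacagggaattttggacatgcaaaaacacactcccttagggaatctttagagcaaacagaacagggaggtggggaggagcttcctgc
The C3 window holds a C/EBP match starting 45 bases before the start and NF-κB letters at 197, 196, 33 and 10 bases before it. The Cd55 window holds NF-κB letters at 151, 61, 17 and 16 bases before the start, Cd59a holds the interferon response letters at 187 and NF-κB letters at 13, and C1s1 holds a single C/EBP match at 242. Such letters are frequent: of 32851 RefSeq windows of the same length, 45.8% hold the NF-κB letters, 9.56% the C/EBP letters and 2.98% the interferon response letters. The AP-2 letters GCCNNNGGC, present in 13.7% of windows, and the STAT letters TTCNNNGAA, present in 7.02%, are not in these 4 windows. Windows that overlap an annotated exon were searched but are not printed. That of C1ra holds the AP-2 letters at 223 bases before its start, and that of another C1s1 start holds NF-κB letters at 35. The search describes letters only.

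The members lie on 5 chromosomes (GRCm38, GENCODE). C4b (chr17:34728380-34743882) and Cfb (chr17:34856374-34862518) are both on the minus strand of chromosome 17, with C3 further along it (chr17:57203970-57228136). C1ra (chr6:124512405-124523443, plus strand) and C1s1 (chr6:124530345-124542359, minus strand) are neighbours on chromosome 6, beside C1rl and C1rb. Serping1 (chr2:84765387-84775444) and Cd59a (chr2:104095801-104115354) are on chromosome 2, Cd55 (chr1:130439027-130462744) on chromosome 1 and Clu (chr14:65968483-65981547) on chromosome 14. C4b, C1ra, C1s1, Cd55 and Cd59a each have a close copy (C4a, C1rb, C1s2, Cd55b and Cd59b), so reads that fit both copies could have been lost or moved, and the levels of these 5 are uncertain by that amount.

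The first comparison asked in which epithelial class each complement gene was expressed. Compared with luminal progenitors, basal cells had higher levels of C1ra and C1s1, of the gene of their inhibitor, Serping1, and of C4b. Their levels of C3, Cfb, Cd55 and Clu were lower. Hormone-sensing cells overlapped basal cells for C1ra and progenitors for Clu. Between basal cells and progenitors 8 of the 9 members passed (adjusted p under 0.05, edgeR quasi-likelihood test on 12 sums with library as a block), 4 in each direction, and Cd59a did not. Of all 11135 genes tested in the same fit 56.1% passed, 29.5% higher in basal cells and 26.6% lower, so passing was common among all genes. The median log2 difference was -0.39 over the members and 0.04 over all genes tested.

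**Figure D1:**
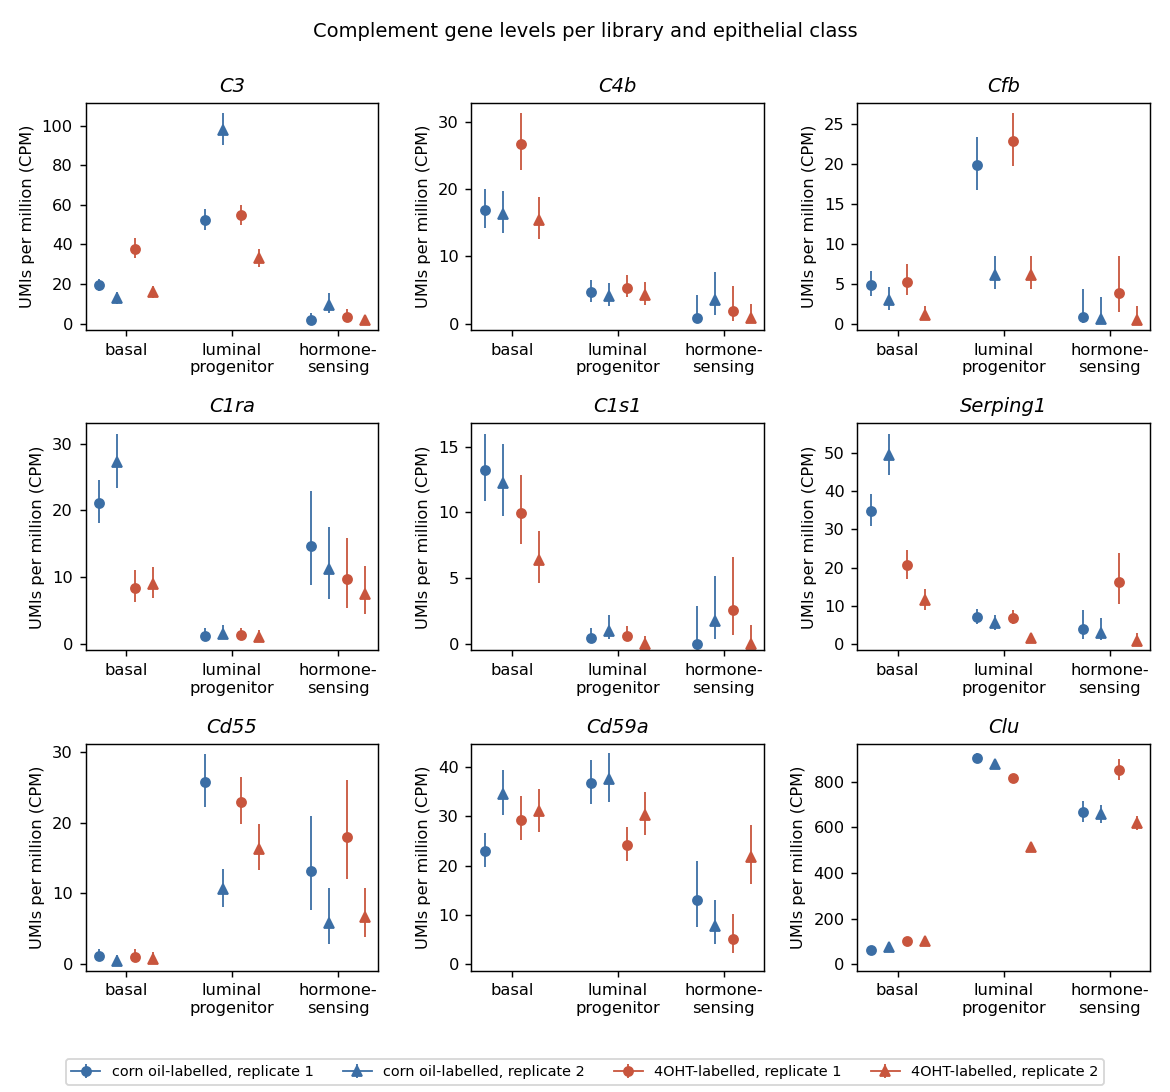
CPM of the 9 complement genes (vertical axis, its own scale from 0 in each panel) in the 3 epithelial classes (horizontal axis) of each library, with exact Poisson 95% intervals that cover counting error only. In each library C1s1, Serping1 and C4b are highest in basal cells and C3, Cfb and Cd55 in luminal progenitors, C1ra is lowest in progenitors, and Clu is high in both luminal classes.

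Among the classical pathway genes, C1ra, which encodes the protease C1r, was read at 21.1, 27.2, 8.42 and 8.96 CPM in basal cells of corn oil-labelled libraries 1 and 2 and 4OHT-labelled libraries 1 and 2. The same 4 libraries gave 1.24, 1.49, 1.31 and 0.966 CPM in progenitors and 14.6, 11.2, 9.66 and 7.48 CPM in hormone-sensing cells. C1ra was thus low in progenitors in every library, and basal and hormone-sensing values overlapped. It was higher in basal cells than in progenitors by 3.33 ± 0.28 on the log2 scale (SE, adjusted p = 4.21e-08) and higher in hormone-sensing cells than in progenitors by 2.82 ± 0.33 (adjusted p = 4.09e-06). Hormone-sensing and basal cells differed by -0.51 ± 0.25 (adjusted p = 0.0937), which did not pass. Its neighbour and close copy C1rb had mean levels of 1.31 CPM in basal, 0.119 CPM in progenitor and 1.35 CPM in hormone-sensing cells, too low for the filter of this test.

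C1s1, the gene of the partner protease C1s, was read at 13.2, 12.2, 9.94 and 6.38 CPM in basal cells, in the same library order. Progenitors held 3, 6, 5 and 0 C1s1 UMIs per library and hormone-sensing cells 0, 3, 4 and 0. All basal values lay above all luminal ones. The difference between basal cells and progenitors was 4.12 ± 0.43 on the log2 scale (adjusted p = 5.91e-07), and hormone-sensing cells were lower than basal cells by -3.28 ± 0.54 (adjusted p = 6.54e-05). Unlike C1ra, C1s1 did not differ between the luminal classes beyond its error (0.84 ± 0.83, adjusted p = 0.436), at UMI numbers near the limit that a count of 0 allows (3 UMIs per sum).

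Serping1, whose product inhibits both proteases, was read at 34.8, 49.4, 20.5 and 11.4 CPM in basal cells and at 7.02, 5.45, 6.90 and 1.45 CPM in progenitors. Basal cells were higher in all 4 libraries, by 2.23 ± 0.35 on the log2 scale (adjusted p = 4.34e-05). Hormone-sensing cells gave 3.85, 2.94, 16.1 and 0.787 CPM. The value of 16.1 CPM, in 4OHT-labelled library 1, came from 25 UMIs, of which 21 were in 1 cell that also held 135 UMIs of 5 fibroblast markers (Col1a1, Col1a2, Col3a1, Dcn and Lum). Hormone-sensing cells and progenitors differed by -0.11 ± 0.50 (adjusted p = 0.878), and by -1.06 with an adjusted p of 0.0261 when cells holding 5 or more UMIs of fibroblast, endothelial or leukocyte markers were removed.

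C4b, the substrate of C1s, was read at 16.9, 16.4, 26.8 and 15.5 CPM in basal cells and at 4.68, 4.13, 5.36 and 4.19 CPM in progenitors. Each group of values was narrow except for 4OHT-labelled library 1 in basal cells. C4b was higher in basal cells by 1.74 ± 0.22 on the log2 scale (adjusted p = 3.85e-06). Hormone-sensing cells held only 1, 6, 3 and 2 C4b UMIs and were lower than progenitors (-1.65 ± 0.40, adjusted p = 0.00297).

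C3, the central component, had the opposite order. It was read at 52.3, 98.0, 54.6 and 33.0 CPM in progenitors, at 19.4, 12.7, 37.9 and 15.8 CPM in basal cells and at 1.54, 9.41, 3.22 and 1.57 CPM in hormone-sensing cells. Progenitors were highest and hormone-sensing cells lowest in each of the 4 libraries. Basal cells were lower than progenitors by -1.70 ± 0.29 on the log2 scale (adjusted p = 0.000100), and hormone-sensing cells lower by -4.12 ± 0.42 (adjusted p = 9.04e-07), the latter from sums of 2 to 16 UMIs.

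Cfb, the gene of factor B, was read at 19.8, 6.11, 22.9 and 6.12 CPM in progenitors and at 4.82, 2.91, 5.22 and 1.06 CPM in basal cells. In both classes the replicate 1 libraries lay above the replicate 2 libraries under either label. Basal cells were lower than progenitors by -2.21 ± 0.25 on the log2 scale (adjusted p = 1.66e-06), and hormone-sensing cells, with 1, 1, 6 and 1 UMIs, lower by -3.52 ± 0.40 (adjusted p = 2.78e-06). The difference between hormone-sensing and basal cells passed (-1.32 ± 0.49, adjusted p = 0.0278) but did not pass without corn oil-labelled library 1 (-0.97, adjusted p = 0.163), without corn oil-labelled library 2 (-1.11, adjusted p = 0.0607) or without 4OHT-labelled library 2 (-1.23, adjusted p = 0.0727).

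The 2 membrane inhibitors differed from each other. Cd55 was nearly absent from basal cells, with 9, 3, 6 and 5 UMIs (1.11, 0.459, 1.01 and 0.759 CPM), and was read at 25.7, 10.6, 23.0 and 16.3 CPM in progenitors and 13.1, 5.88, 18.0 and 6.69 CPM in hormone-sensing cells. The lowest luminal value was above the highest basal one. Cd55 had the lowest basal value relative to progenitors among the 9 members (-4.75 ± 0.24 on the log2 scale, adjusted p = 1.43e-10), was also lower in hormone-sensing cells than in progenitors (-1.10 ± 0.21, adjusted p = 0.000391), and was higher in hormone-sensing than in basal cells (3.64 ± 0.30, adjusted p = 3.20e-08).

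Cd59a was read at 23.0, 34.6, 29.3 and 31.0 CPM in basal cells and 36.7, 37.5, 24.2 and 30.3 CPM in progenitors, and the 2 classes overlapped (-0.39 ± 0.21, adjusted p = 0.130). With stricter class limits the sign of that difference turned (0.05, adjusted p = 0.878). Hormone-sensing cells, at 13.1, 7.65, 5.15 and 21.7 CPM, were lower than progenitors (-1.66 ± 0.27, adjusted p = 9.95e-05) and than basal cells (-1.27 ± 0.27, adjusted p = 0.000713).

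Clu, the gene of the fluid-phase inhibitor clusterin, was read at 903, 878, 816 and 514 CPM in progenitors, 668, 659, 853 and 620 CPM in hormone-sensing cells and 63.5, 76.6, 104 and 102 CPM in basal cells. Both luminal classes were far above basal cells in every library and overlapped each other. Basal cells were lower than progenitors by -3.43 ± 0.19 on the log2 scale (adjusted p = 3.53e-10), hormone-sensing cells were higher than basal cells by 3.03 ± 0.19 (adjusted p = 1.25e-09), and the luminal classes differed by -0.40 ± 0.17 (adjusted p = 0.0702). Without 4OHT-labelled library 2 that last difference was -0.48 and passed (adjusted p = 0.0271).

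**Figure D2:**
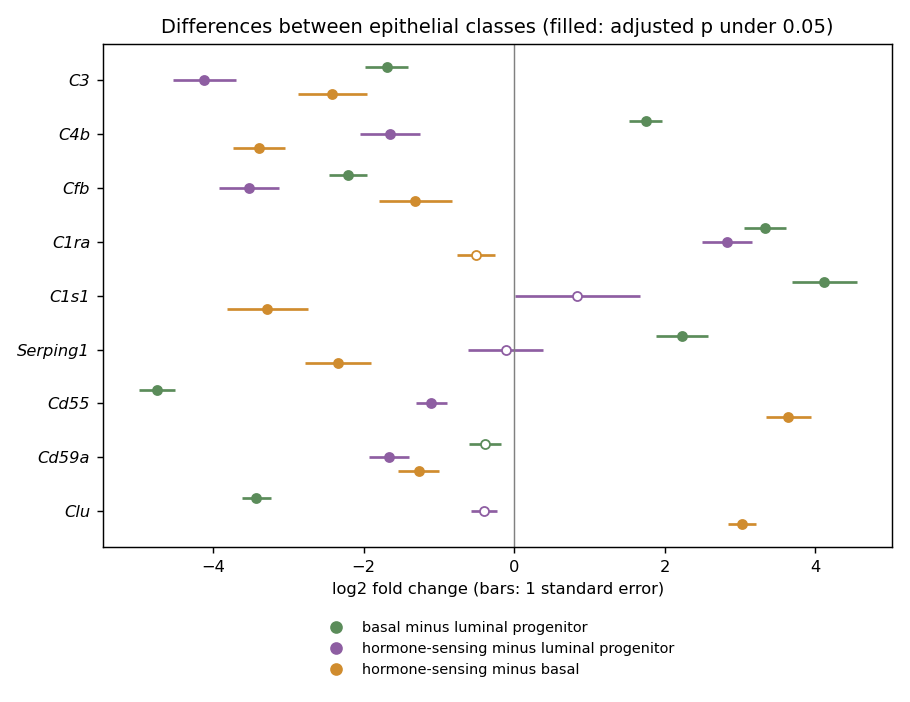
Log2 fold changes between epithelial classes (horizontal axis) for the 9 genes, each with a bar of 1 standard error from edgeR's fit over 12 sums. Filled points passed an adjusted p of 0.05: 8 of 9 between basal cells and progenitors, 6 of 9 between hormone-sensing cells and progenitors, and 8 of 9 between hormone-sensing and basal cells.

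Counted over both contrasts of the hormone-sensing class, 6 of 9 members differed from progenitors, 1 higher (C1ra) and 5 lower, where 46.4% of all genes passed, 21.9% higher and 24.6% lower. Against basal cells 8 of 9 differed, 2 higher (Cd55 and Clu) and 6 lower (C3, C4b, Cfb, C1s1, Serping1 and Cd59a), where 59.8% of all genes passed, 27.3% higher and 32.4% lower. Hormone-sensing cells were thus lower than both other classes for C3, C4b, Cfb and Cd59a. The median log2 difference of the members was -1.10 against progenitors and -1.32 against basal cells, beside -0.02 and -0.08 over all genes.

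The class marked hormone-sensing held 149 of 1168 cells (12.8%) with 5 or more UMIs of another cell type's markers, compared with 0.657% of progenitors and 0.256% of basal cells. Of the 5 fibroblast markers it was Dcn that was read there: in 4OHT-labelled library 1, those 80 cells held 1999 Dcn UMIs but 2 of Col1a1, 2 of Col1a2, 4 of Col3a1 and 10 of Lum, and 62 of the progesterone receptor gene Pgr. C1ra was also read outside them. In hormone-sensing cells without such markers it stood at 13.6, 9.66, 6.78 and 6.99 CPM, in the library order above.

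The share of cells with at least 1 UMI is given beside the level. At low CPM this share is set mostly by the level, so it cannot tell expression in many cells from expression in few. Every cell was thinned to 2000 UMIs so that depth did not set the share, and cells below that were left out, at most 379 per class and library. After thinning, Clu was detected in 44.3% to 56.8% of progenitors, 45.7% to 60.6% of hormone-sensing cells and 8.55% to 11.9% of basal cells. Fibroblast-gated cells outside the classes, whose pooled Clu level was below that of each class, served as background. In corn oil-labelled library 2, 3.08% of 65 such cells (exact 95% interval 0.375% to 10.7%) had a Clu UMI, at a median of 3241 UMIs per cell beside 3172 in basal cells of that library (11.2%, 9.76% to 12.8%). The share was 9.52% of 21 cells (1.17% to 30.4%) in 4OHT-labelled library 1 and 30.0% of 10 cells (6.67% to 65.2%) in 4OHT-labelled library 2, where their Clu level was 497 CPM, and corn oil-labelled library 1 had 2 such cells. In 4OHT-labelled library 2, 1 cell held 17 of their 20 Clu UMIs. The 6 progenitor markers summed to 1441 CPM in those 10 cells, so they are a poor background. At these cell numbers the Clu share of basal cells was not separated from the background. Without thinning the shares were 57.3% to 72.8% in progenitors and 14.0% to 20.1% in basal cells.

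C3 was detected in 4.85% to 14.7% of thinned progenitors, 2.17% to 6.18% of basal cells and at most 0.920% of hormone-sensing cells. Endothelial-gated cells, which held 1 C3 UMI in all, gave 1.96% of 51 cells in corn oil-labelled library 2 and 0 elsewhere. Cd55 was detected in 2.09% to 4.57% of progenitors and 0.0571% to 0.205% of basal cells, C1ra in 1.72% to 4.00% of basal cells and at most 0.240% of progenitors, and Serping1 in 2.28% to 6.57% of basal cells and 0.539% to 1.28% of progenitors. Each of these orders was that of the CPM, from which shares this low largely follow. The unthinned shares were 3.67% to 11.8% (C3, basal), 9.67% to 27.0% (C3, progenitors), 5.39% to 12.6% (Cd55, progenitors), 2.43% to 7.62% (C1ra, basal) and 2.94% to 8.85% (Serping1, basal). Thinned endothelial-gated cells gave 0%, 3.92%, 13.3% and 5.56% for Cd55, in the library order above. For C1ra they gave 0%, 1.96%, 6.67% and 0%, and for Serping1 0%, 7.84%, 0% and 0%. These rest on 6, 51, 30 and 54 cells, so this gate gave no clear background for Cd55, C1ra and Serping1.

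**Figure D3:**
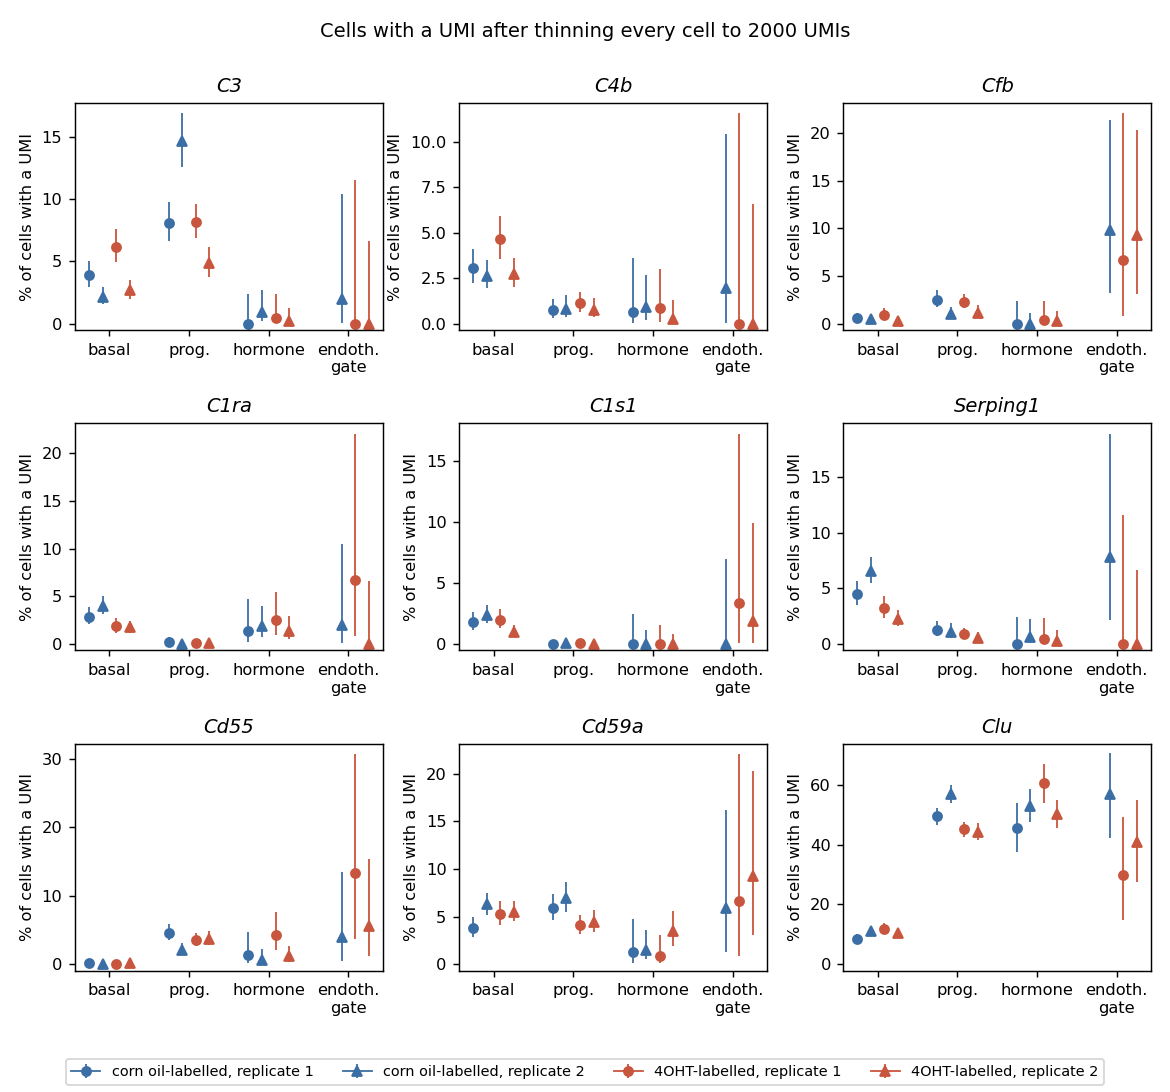
Percent of cells with at least 1 UMI of each gene after thinning to 2000 UMIs (vertical axis), per class and for endothelial-gated cells outside the classes (horizontal axis), with exact Clopper-Pearson 95% intervals. Clu was detected in 44.3% to 56.8% of progenitors, and C1ra in at most 0.240% of them.

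The members also differed in how their UMIs were spread over the cells of a class. Had the UMIs of Clu fallen evenly in proportion to each cell's depth, 97.3%, 96.8%, 94.0% and 82.1% of progenitors would have held one, and 68.0%, 72.8%, 58.6% and 57.3% did. Cfb UMIs were read in 5.35%, 2.74%, 4.46% and 1.88% of progenitors where an even spread gives 10.5%, 3.20%, 10.2% and 2.59%, and single cells held up to 19. Serping1 was read in 8.76%, 8.85%, 6.19% and 2.94% of basal cells where an even spread gives 17.0%, 15.2%, 8.16% and 3.38%. The gap was wide in the corn oil-labelled libraries and narrow in the others, where the level was also lower. A lower level by itself narrows this gap, so the spread was not told apart from the level. Cd55 lay closer to even, with 12.6%, 5.39%, 8.59% and 6.61% of progenitors beside 13.3%, 5.46%, 10.2% and 6.69%, and in 4OHT-labelled library 1 a single cell classed as a progenitor held 24 of its 193 UMIs. That cell also held 231 fibroblast marker UMIs, 9 UMIs of the 3 luminal keratins and 18 of the 58 Serping1 UMIs of that progenitor sum.

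On thinned cells 6 pairs of members were looked at in each of the 3 classes, without a test. Some could share a direction in all 4 libraries by chance. Cells with the first gene held the second more often in all 4 libraries for C3 with Cfb and C3 with Clu in progenitors. The same held for C3 with C4b in basal cells. This description rests on few cells for Cfb and C4b. Among progenitors with a C3 UMI, 7.92%, 1.86%, 6.77% and 4.76% also had a Cfb UMI, from 8, 3, 9 and 3 cells, beside 2.01%, 0.854%, 1.87% and 0.971% of progenitors without C3. Among basal cells with a C3 UMI, 7.02%, 7.89%, 11.1% and 8.33% also had a C4b UMI, beside 2.92%, 2.51%, 4.23% and 2.57% of those without. For Clu in progenitors the shares were 71.3%, 58.4%, 50.4% and 44.4% with C3 and 47.5%, 56.6%, 44.6% and 44.3% without, nearly equal in both replicate 2 libraries. C3 with Cd59a in basal cells went the other way in all 4 libraries. Among basal cells with a C3 UMI, 3.51%, 2.63%, 3.70% and 4.17% also had a Cd59a UMI, from 2, 1, 3 and 2 cells. Without C3 the shares were 3.84%, 6.37%, 5.37% and 5.54%. C1ra and C1s1, whose products act as a complex, met in 1, 4, 3 and 0 basal cells. Among basal cells the C1s1 shares were 2.38%, 5.71%, 12.5% and 0% with C1ra and 1.76%, 2.20%, 1.79% and 1.02% without.

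The second comparison was that between treatments within each class. No member passed in any class. In basal cells 8 members were tested, since Cd55 fell below the count filter, and 0 of 10788 genes passed (0.00%), with 465 genes at an unadjusted p under 0.05 (4.31%). C1ra, Serping1 and Clu were among these 465. In basal cells DESeq2 called 38 genes, with no member among them.

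C1ra in basal cells stood at 21.1 and 27.2 CPM under the corn oil label and 8.42 and 8.96 CPM under the 4OHT label. The groups did not overlap, and the log2 difference was -1.43 ± 0.30 (adjusted p = 0.769, edgeR). Serping1 stood at 34.8 and 49.4 CPM against 20.5 and 11.4 CPM, a difference of -1.39 ± 0.35 (adjusted p = 0.934). C1s1, at 13.2 and 12.2 against 9.94 and 6.38 CPM, differed by -0.61 ± 0.30 (adjusted p = 0.999). The C1 proteases and their inhibitor therefore all had lower values in both 4OHT-labelled libraries, by amounts that did not pass over all genes. C1ra and Serping1 did pass without the count filter (adjusted p = 0.0218 and 0.0246, edgeR), a setting in which other genes also passed, as counted in the closing section. With a library left out, which leaves 1 library in a group, the difference ran from -1.65 to -1.15 for C1ra. For Serping1 it ran from -1.75 to -1.02. Groups did not overlap for 4 of the 8 members in basal cells, 3 lower and Clu higher, beside 30.7% of all genes (17.6% lower and 13.0% higher).

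Fibroblast-gated cells held C1ra, C1s1 and Serping1 at higher pooled levels than basal cells, so markers of other cell types are given here. The 5 fibroblast markers summed, in basal cells, to 14.5 and 67.8 CPM under the corn oil label and to 10.8 and 19.3 CPM under the 4OHT label, with 4 or 5 of the 5 markers read in each. Most of this was Dcn, at a mean of 23.3 CPM over the 4 libraries. Col1a1, Col1a2, Col3a1 and Lum had means of 0.830, 1.09, 1.93 and 0.956 CPM. The 5 pericyte markers summed to 5.35 to 8.65 CPM, the 5 endothelial markers to 9.26 to 56.3 CPM and the 5 leukocyte markers to 0.247 to 1.68 CPM. Without cells holding 5 or more UMIs of fibroblast, endothelial or leukocyte markers the differences were -1.41 for C1ra and -1.36 for Serping1, close to those with them. Such cells were 18 of 7028 basal cells (0.256%), so their removal could move the values little, and it leaves any free RNA in the remaining cells. Bst2, an interferon-induced gene named here after its values were seen, stood in basal cells at 152 and 175 CPM under the corn oil label and at 75.3 and 44.8 CPM under the 4OHT label. Its values were lower under the same label as those of C1ra and Serping1, and its part in their values was not tested.

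**Figure D4:**
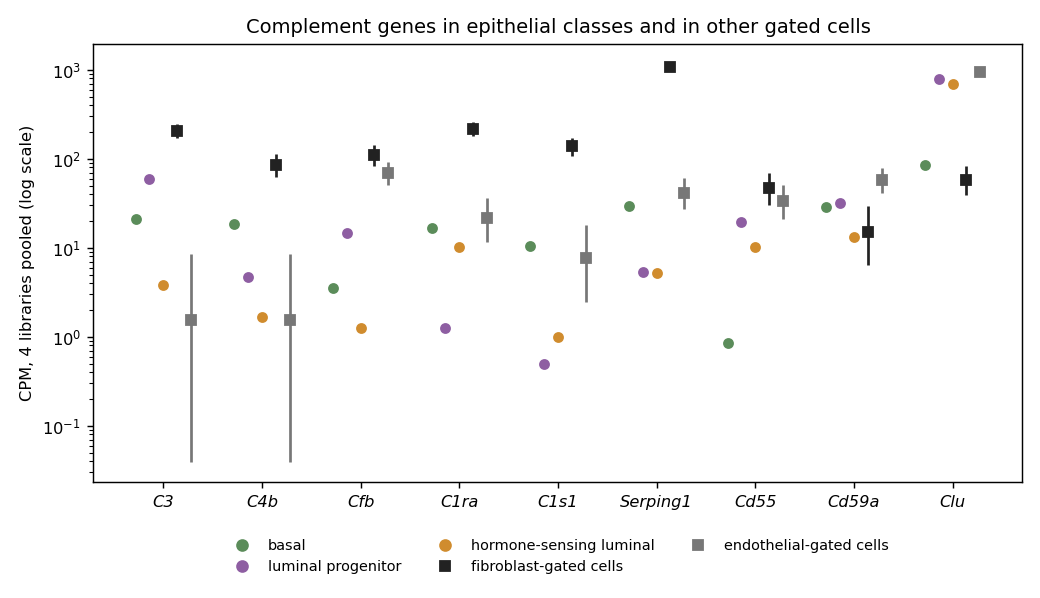
Pooled CPM of the 9 genes (vertical axis, log scale) in the 3 classes and in cells outside them that pass a gate of 5 or more fibroblast or endothelial marker UMIs; bars are exact Poisson 95% intervals of the gated cells. Fibroblast-gated cells reach 1074 CPM for Serping1 and 218 CPM for C1ra, beside 29.5 and 16.9 CPM in basal cells.

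Clu in basal cells stood at 63.5 and 76.6 CPM under corn oil and 104 and 102 CPM under 4OHT labels (0.59 ± 0.24, adjusted p = 0.999). The progenitor marker list in the same cells gave 204 and 323 against 162 and 287 CPM, groups that overlapped. Most of this was Plet1, at a mean of 226 CPM over the 4 libraries. Of the luminal keratins, Krt18 averaged 572 CPM in basal cells under the corn oil label and 827 CPM under the 4OHT label. Krt8 averaged 578 against 721 CPM and Krt19 109 against 95.7 CPM. The part of RNA from luminal cells in the Clu values was not tested. C3 (0.75 ± 0.41), C4b (0.37 ± 0.30), Cd59a (0.11 ± 0.32) and Cfb (-0.31 ± 0.66) had overlapping groups in basal cells. Without 4OHT-labelled library 1 the C3 difference was 0.13.

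**Figure D5:**
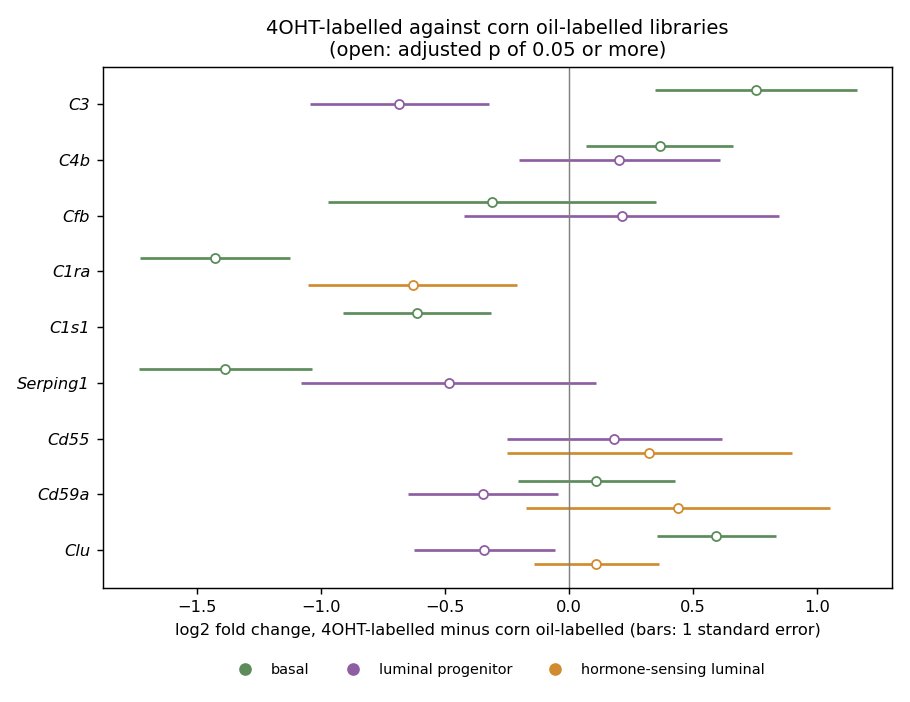
Log2 fold changes between 4OHT-labelled and corn oil-labelled libraries (horizontal axis, bars of 1 standard error, 2 libraries per group) for the members that passed the count filter in each class. All points are open because no adjusted p was under 0.05; C1ra (-1.43) and Serping1 (-1.39) in basal cells lie farthest from 0.

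In luminal progenitors 7 members were tested (C1ra and C1s1 fell below the filter) and 0 of 10120 genes passed (0.00%), with 166 at an unadjusted p under 0.05 (1.64%) and no member among them. DESeq2 called 1 gene there, not a member. Clu, at 903 and 878 against 816 and 514 CPM, differed by -0.34 ± 0.29 (adjusted p = 1.00), and C3 by -0.68 ± 0.36. Clu and Cd59a had lower values in both 4OHT-labelled libraries than in both others, 2 of 7 members beside 24.9% of all genes (17.5% lower and 7.33% higher). Cfb in progenitors followed the replicate number and not the label, at 19.8 and 22.9 CPM in the replicate 1 libraries and 6.11 and 6.12 CPM in the replicate 2 libraries, and its label difference was 0.21 ± 0.64.

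In hormone-sensing cells 4 members were tested, none passed or had an unadjusted p under 0.05, and 1 of 7589 genes passed (0.0132%), with 3.16% at an unadjusted p under 0.05. That gene was Ctsr, a cathepsin gene named here after its values were seen, with 1.54 and 3.53 CPM against 58.6 and 51.2 CPM. C1ra was lower without overlap (-0.63 ± 0.42, adjusted p = 1.00), 1 of 4 members beside 30.5% of all genes (13.5% lower and 17.0% higher), and Cd55, Cd59a and Clu overlapped.

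The difference of the treatment effect between classes was tested directly, since an effect in one class and not in another shows no difference by itself. No member passed. Between basal cells and progenitors (0 of 11998 genes, 0.00%; 494 or 4.12% at an unadjusted p under 0.05) Clu differed by 0.96 ± 0.27 (adjusted p = 0.808), C3 by 1.28 ± 0.44 (adjusted p = 1.00) and C1ra by -1.30 ± 0.55 (adjusted p = 1.00). Clu thus had higher values under the 4OHT label in basal cells and lower ones in progenitors. Between hormone-sensing and basal cells, where 1 gene passed (0.00833%), namely Bst2, and 5.95% had an unadjusted p under 0.05, Serping1 differed by 2.26 ± 0.83 (adjusted p = 0.699) and C3 by -2.00 ± 0.82 (adjusted p = 0.762). The Serping1 value rested on 4OHT-labelled library 1, which holds the cell with 21 UMIs: it was -0.37 without that library and 0.36 without cells holding other types' markers. The C3 value was 0.20 without corn oil-labelled library 2. Between hormone-sensing cells and progenitors (0.00833%, the gene again Ctsr) no member had an unadjusted p under 0.05, beside 3.83% of all genes.

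The rest of the complement system was read from a list of 57 genes, of which 56 are in the matrices, 47 of them not members. In the 3 classes 14 of these 47 had no UMI, 37 had a mean under 1 CPM in every class and 2 reached 10 CPM in a class. C1qbp, a mostly mitochondrial protein that binds C1q, averaged 126, 137 and 105 CPM in basal, progenitor and hormone-sensing cells, and was highest in progenitors (basal minus progenitor -0.39 ± 0.12, adjusted p = 0.0106; hormone-sensing minus progenitor -0.62 ± 0.12, adjusted p = 0.000701). Cr1l, which encodes the rodent membrane inhibitor Crry, averaged 21.3, 37.3 and 29.6 CPM and was lower in basal cells than in progenitors (-1.06 ± 0.17, adjusted p = 7.62e-05) and lower in hormone-sensing cells than in progenitors (-0.57 ± 0.19, adjusted p = 0.0209). Cr1l was thus read in basal cells, which had nearly no Cd55. C2, the other substrate of C1s, averaged 0.624, 2.85 and 5.76 CPM and was higher in hormone-sensing than in basal cells (3.25 ± 0.46, adjusted p = 1.37e-05). Unlike C1ra and C1s1, C2 was lower in basal cells than in progenitors (-2.50 ± 0.41, adjusted p = 8.35e-05, edgeR). Those 3 were the only other complement genes that passed the count filter for the class contrasts, and none passed for treatment.

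For each member, genes with the most similar log2(CPM + 1) over the 12 sums were taken from 4141 genes at 20 CPM or more, as a description of sums that share libraries. C1ra was followed by Lifr (r = 0.96) and Galnt18 (r = 0.95), C1s1 by Osmr and Stx7 (both r = 0.97), C4b by Rbpj (r = 0.98) and Zfp326 (r = 0.97), and Serping1 by Spats2l and Pkm (both r = 0.93). Lifr and Osmr encode receptors of the interleukin-6 cytokine family. Cd55 was followed by Tuft1 (r = 0.97), Clu by Appl2 and Cgn (both r = 0.98), C3 by Smndc1 (r = 0.95) and Samd4b (r = 0.94), Cfb by Prkci (r = 0.96) and Txnl1 (r = 0.93), and Cd59a by Prdx4 (r = 0.95) and Sox10 (r = 0.92). Among the members Cd55 and Clu were the most alike (r = 0.94), then C1s1 and Serping1 (r = 0.89), and C1s1 and Clu the most opposed (r = -0.88).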

How the data were processed

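Counts are those the authors deposited: raw UMI counts per gene and cell barcode, made with Cell Ranger 3.0.1 on mm10 (GRCm38.91), per the labels' design text and the submitters' processing notes. Reads that fit several genes are not in such counts, and no correction for free RNA was applied here. The members and all lists were chosen with earlier results of these data known. Cells with under 1000 UMIs (391) were left out, and no doublets were removed in the main values. UMI sums per library and class were tested with edgeR 4.0.16 (R 4.3.3; quasi-likelihood, TMM, filterByExpr, Benjamini-Hochberg over all genes tested, threshold 0.05). Treatments were compared in each class over 2 libraries against 2, and classes over 12 sums with library as a block. SE is the log2 difference divided by the root of F. Named genes were the 9 members, complement genes that passed a test or reached 10 CPM in a class, and the 2 genes most like each member. Ctsr and Bst2 fall outside that rule, and a gene that the rule names is not reported here. On simulated counts with a log2 change of 2, the tests recovered 80.7% of changed genes in basal cells (10768 genes), 77.9% in progenitors (10082), 80.5% in hormone-sensing cells (7583), 99.0% between classes (10930) and 78.8% for the difference of effects (11439). False calls were 8, 3, 13, 5 and 5, in the same order. Each simulation gave all genes the same dispersion. No member's treatment difference within a class was that large (farthest from 0: -1.43, C1ra in basal cells), so these shares do not give the recovery at such differences. Alternatives were DESeq2 1.42.0, other size factors, no filter, stricter class limits, removal of cells with other types' markers, a filter on genes, mitochondrial UMIs and doublets, leaving out each library, and the replicate number as a block. Intervals and floors (3 UMIs) cover counting error only.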

Additional observations from a re-analysis of the deposited data

Results flagged for a closer look

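Cells outside the 3 classes were not part of the comparisons, and several members stood higher there than in any class. The 124 cells gated by fibroblast markers, 81 of them in corn oil-labelled library 2, held Serping1 at 1074 CPM (exact Poisson 95% interval 988 to 1166), beside 29.5 CPM in basal cells, all 4 libraries pooled. In the same cells C1ra stood at 218 CPM, C3 at 207 CPM, C1s1 at 138 CPM, Cfb at 110 CPM, C4b at 85.8 CPM and Cd55 at 46.6 CPM. Each interval lay above the highest pooled class value, but corn oil-labelled library 2 carried part of this. Without it C3 stood at 86.6 CPM beside 47.7 CPM in the highest class, C4b at 41.0 CPM (interval 18.8 to 77.9) beside 19.3 CPM and Cd55 at 18.2 CPM beside 22.0 CPM, so Cd55 was then no longer higher and the C4b interval reached the class value. The intervals of C3, C1ra, C1s1, Serping1 and Cfb stayed above with any 1 library left out, a setting added after seeing the data. In 4OHT-labelled library 1 a single cell held 24 of the 29 Cfb UMIs. In the pooled cells Cd59a (14.9 CPM) and Clu (57.8 CPM) were not raised.

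The 235 cells gated by endothelial markers held another set: Clu at 940 CPM, Cfb at 68.9 CPM, Cd59a at 58.2 CPM and Cd55 at 33.7 CPM, all above the highest class with the 4 libraries pooled, with 1 UMI each of C3 and C4b. Clu stood at 327, 1492, 436 and 835 CPM in corn oil-labelled libraries 1 and 2 and 4OHT-labelled libraries 1 and 2, and without corn oil-labelled library 2 its pooled level was 684 CPM beside 759 CPM in the highest class. The interval of Cd55 reached the class value without 4OHT-labelled library 1 (25.2 CPM, 13.4 to 43.1, beside 18.0 CPM) or 4OHT-labelled library 2 (32.5 CPM, 16.8 to 56.8, beside 20.4 CPM), and that of Cd59a without 4OHT-labelled library 2 (46.1 CPM, 26.8 to 73.7, beside 32.1 CPM). Of the other complement genes, Cd93 was read at 206 UMIs there. These are pooled values over cells of 4 libraries, with no test between groups.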

How the results depend on the processing

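Recomputed under the other settings, 154 of 162 class differences of the members kept direction and side of the threshold, as did 100 of 108 with a library left out. Counts of genes passing for treatment moved more. Without the count filter 93, 39 and 59 genes passed in basal, progenitor and hormone-sensing cells, with DESeq2 38, 1 and 7, and with a replicate block 167, 9 and 3. With 1 library left out the counts ran from 17 to 127, 31 to 64 and 4 to 80; the lone library is then assumed to vary like the others. For the difference of effects (basal minus progenitor, hormone-sensing minus progenitor, hormone-sensing minus basal) 39, 35 and 80 genes passed without the filter, and 2 to 12, 0 to 8 and 0 to 24 with a library left out. The last of these was 0 with median-of-ratios size factors, with stricter class limits and without cells holding other types' markers, 5 with DESeq2 and 2 with the doublet filter. The cause was not tested.

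In basal cells C1ra and Serping1 passed with a replicate block (adjusted p = 0.00653 and 0.0306, edgeR), besides the setting without the count filter. Same-numbered libraries deviated together (r = 0.73 over 4248 genes in basal cells, 0.47 over 3600 in progenitors, 0.24 over 3990 in hormone-sensing cells), but with 2 pairs and no label of a shared batch they share only a number. The Serping1 difference of effect between hormone-sensing and basal cells passed without the filter (2.28, adjusted p = 0.0391) and without 4OHT-labelled library 2 (3.27, adjusted p = 0.0297). Of the class differences, Cd59a (basal minus progenitor) and Clu (hormone-sensing minus progenitor) passed without the filter (adjusted p = 0.0482 and 0.000772), C1ra (hormone-sensing minus basal) passed there and in 3 other settings, and Cfb missed with the doublet filter (0.0505).

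Signs turned for values that did not pass in the report. With a library left out the log2 difference between labels ran from -1.70 to 0.39 (Cfb) and -0.20 to 0.52 (Cd59a) in basal cells, from -0.95 to 1.37 (Cfb), -1.94 to 0.17 (Serping1) and -0.33 to 1.03 (Cd55) in progenitors, and from -0.47 to 0.90 (Cd55), -1.03 to 1.07 (Cd59a) and -0.12 to 0.29 (Clu) in hormone-sensing cells. Serping1 between hormone-sensing cells and progenitors ran from -1.12 to 0.21, and the differences of effect between hormone-sensing and basal cells from -3.11 to 0.20 (C3) and -0.37 to 3.27 (Serping1). C4b in progenitors was -0.068 with the doublet filter, and with stricter limits Cd55 in progenitors was -0.024 and Cd59a between basal cells and progenitors 0.048. Hormone-sensing sums, of 1297128 to 2539711 UMIs, limit C4b, Cfb and C1s1 there to at most 6 UMIs per library, C3 to 2 to 16 and Serping1 to 2 to 25.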
